A study of Homo sapiens with 12 samples.

Results

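The genes of 10 glycolytic enzymes, HK2, PFKP, ALDOA, TPI1, GAPDH, PGK1, PGAM1, ENO1, PKM and LDHA, were chosen by symbol from a table of 25268 genes, and all 10 were listed there. All 10 also lay among the 14676 genes with a mean FPKM (sequenced fragments per kilobase of a gene's transcript, relative to all mapped fragments) of at least 0.5, over which every test was run. The values come from HEK293, an established human embryonic kidney cell line, transiently transfected with 2 µg of plasmid. The plasmid was pCMV6-HIS-HA-RBMX, which expresses tagged RBMX, or the mock empty vector, which served as control and which the labels also call wild type. RBMX is an RNA-binding protein that, per the paper, can lie in the nucleus and in the cytoplasm. For each vector 3 cultures were grown, treated with cycloheximide to hold ribosomes on their mRNAs, and lysed, and per the labels nuclei were spun out of the lysate. Each lysate was run on a sucrose gradient, where mRNAs that carry several ribosomes sediment in the polysomal fractions. Total RNA was a pool of 20% of every fraction of the same gradient, so it also contains polysomal RNA. There were 12 libraries of 500 ng RNA each, 3 per vector and RNA fraction.

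Glycolysis breaks glucose down to pyruvate in the cytosol and yields ATP and NADH without oxygen. Hexokinase traps glucose by phosphorylation, phosphofructokinase commits it to the pathway, aldolase splits the sugar, and the enzymes from glyceraldehyde-phosphate dehydrogenase to pyruvate kinase harvest the energy. Lactate dehydrogenase reduces pyruvate to lactate and returns NAD to the pathway. Proliferating cells in culture run this pathway at a high rate even with oxygen present. Several of its genes are known targets of the hypoxia-inducible factor and of MYC, and GAPDH and PGK1 are common reference genes for normalizing expression.

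Both of these factors are known to bind DNA at short elements, the hypoxia-inducible factor at a core of ACGTG and MYC at the E-box CACGTG, which contains that core. In the 250 bases before each annotated start, searched on both strands, ACGTG was present in 18.5% and CACGTG in 6.34% of 35116 RefSeq windows (GRCh38.p14). The 10 genes have 18 such windows, of which 10 hold ACGTG and 4 hold CACGTG. At least 1 window of HK2, PFKP, ALDOA, TPI1, GAPDH, PGK1 and LDHA holds ACGTG, and no window of PGAM1, ENO1 or PKM does. The stretches of 30 bases below, on the plus strand and 5′ to 3′, show for each of these 7 genes the match nearest to the start. Each comes from the gene's window with most matches, with the match in capitals, where CACGT is the core read on the other strand. Further matches are not shown. The window of LDHA holds 2 CACGTG, and the lower-case cgtg that opens its stretch is the cut end of 1 of them. The stretches are a description of sequence and do not show that any factor was bound.
HK2: tccggcgagagCACGTGgagagaatcgtgg
PFKP: ccacgagcgcctACGTGatgcccggcccgt
ALDOA: ggcagggaggcCACGTGatccgagtcccct
TPI1: ccgtgcgccgccgCACGTagccccagactc
GAPDH: ctctgcggggtCACGTGtcgcagaggagcc
PGK1: aaacggaagccgCACGTctcactagtaccc
LDHA: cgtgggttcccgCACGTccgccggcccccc

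On GRCh38.p14 the stretch of HK2 lies at chr2:74835010-74835039 and that of PFKP at chr10:3069038-3069067. The stretch of ALDOA lies at chr16:30064374-30064403 and that of TPI1 at chr12:6868075-6868104. The stretch of GAPDH lies at chr12:6535172-6535201, that of PGK1 at chrX:78104053-78104082 and that of LDHA at chr11:18394478-18394507. The first base of these stretches lies between 30 (TPI1) and 195 (PGK1) bases before the annotated start of its window. Where a gene has several annotated starts, a position before one of them can lie inside a transcript from another.

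RBMX itself checked the labels, at 147, 145 and 108 FPKM in control total RNA against 1731, 2073 and 1460 in RBMX total RNA. In polysomal RNA it stood at 146, 148 and 87.4 in control cells against 1167, 1328 and 1072 in RBMX cells. All 7 genes taken as markers of HEK293 (among them PAX2, EYA1, VIM and NEFM) were detected, with summed FPKM values from 306 to 709, while 5 markers of leukocytes, hepatocytes, muscle, endothelium and fibroblasts reached at most 0.226 FPKM each. Fragment numbers per library are unknown, so no counting error can be attached to a value, and the FPKM values of all genes summed to between 817528 and 1903317 per library. The median-ratio scaling factors of the libraries ran from 0.9989 to 1.03.

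GAPDH had the highest level of the 10 in all 12 libraries. Since FPKM is a level per length, levels are compared between genes directly, and positions of genes are those of the GENCODE annotation of GRCh38. HK2, hexokinase 2 on chromosome 2 from 74833981 to 74893359, phosphorylates glucose and was the least abundant. Its FPKM was 2.99, 3.28 and 2.59 in control total RNA of cultures 1 to 3 and 3.98, 4.35 and 2.96 in RBMX total RNA. In polysomal RNA HK2 stood at 3.24, 3.37 and 2.49 in control cells and at 4.37, 4.68 and 3.20 in RBMX cells. RBMX replicate 3 lay among the control values and the other RBMX libraries above them, so the groups overlapped in both fractions.

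PFKP, the platelet isoform of phosphofructokinase on chromosome 10 from 3066333 to 3137712, catalyses the committed step. It had FPKM values of 58.7, 58.1 and 23.9 in control total RNA and of 60.3, 53.5 and 55.9 in RBMX total RNA. Polysomal values of PFKP were 65.1, 63.8 and 25.6 in control cells and 65.7, 75.3 and 63.3 in RBMX cells. Control replicate 3 was the lowest of the 12 libraries in its total and next to lowest in its polysomal RNA, and the other 10 lay between 53.5 and 75.3.

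ALDOA, aldolase A on chromosome 16 from 30064164 to 30070457, splits fructose bisphosphate into triose phosphates. Its level was 556, 537 and 272 FPKM in control total RNA and 536, 488 and 509 in RBMX total RNA. In polysomal RNA ALDOA stood at 601, 608 and 290 in control cells against 564, 594 and 597 in RBMX cells. Again control replicate 3 was far below all other libraries in both fractions.

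TPI1, triosephosphate isomerase on chromosome 12 from 6867119 to 6870948, interconverts the triose phosphates. Over the 12 libraries it varied least of the 10, with 277, 309 and 276 FPKM in control total RNA and 292, 310.1 and 312 in RBMX total RNA. Polysomal TPI1 was 308, 339 and 296 in control cells and 344, 301 and 350 in RBMX cells. Here control replicate 3 lay next to the others, and the highest library of TPI1 was 1.27 times its lowest. Over the 10 libraries without control culture 3, GAPDH and ENO1 varied less than TPI1. Their standard deviations of log2(FPKM + 1) were then 0.083 and 0.0875, against 0.107 for TPI1.

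GAPDH, glyceraldehyde-phosphate dehydrogenase on chromosome 12 from 6533927 to 6538374, produces NADH. Its FPKM in control total RNA was 1323, 1290 and 671, and in RBMX total RNA 1164, 1131 and 1180. In polysomal RNA GAPDH measured 1259, 1314 and 604 in control cells and 1242, 1154 and 1271 in RBMX cells. Both libraries of control culture 3 were far below the other 10, which lay between 1131 and 1323.

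PGK1, phosphoglycerate kinase 1 on chromosome X from 77910739 to 78129296, makes the first ATP of the payoff phase. Control total RNA held 165, 166 and 63.7 FPKM of PGK1 and RBMX total RNA 154, 153 and 159. Polysomal PGK1 was 186, 189 and 59.2 in control cells and 176, 153 and 183 in RBMX cells. PGAM1, phosphoglycerate mutase 1 on chromosome 10 from 97426160 to 97433441, moves the phosphate within the product. Its FPKM was 57.8, 58.2 and 50.3 in control total RNA, 58.3, 61.6 and 49.6 in RBMX total RNA, 64.0, 61.5 and 49.4 in control polysomal RNA and 66.5, 58.8 and 59.4 in RBMX polysomal RNA. PGK1 was thus low in control replicate 3 alone, whereas PGAM1 was about as low in RBMX total replicate 3 as in control replicate 3.

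ENO1, enolase 1 on chromosome 1 from 8861000 to 8879250, forms phosphoenolpyruvate. It measured 978, 984 and 376 FPKM in control total RNA and 973, 910 and 956 in RBMX total RNA. The polysomal libraries held 1064, 1111 and 373 FPKM of ENO1 in control cells and 1012, 1008 and 1080 in RBMX cells. PKM, pyruvate kinase on chromosome 15 from 72199029 to 72231822, makes pyruvate and ATP, and its muscle and proliferation-associated isoforms are summed in one value per gene here. PKM stood at 692, 682 and 215 FPKM in control total RNA and at 658, 598 and 648 in RBMX total RNA. In polysomal RNA the values were 759, 787 and 217 for PKM in control cells and 722, 737 and 722 in RBMX cells. Of all 10 genes PKM had the widest range over the 12 libraries. Its highest library lay 3.66 times above its lowest, which was control total replicate 3.

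LDHA, the lactate dehydrogenase A subunit on chromosome 11 from 18394388 to 18408425, favours the reduction of pyruvate to lactate. Its FPKM was 292, 317 and 146 in control total RNA and 271, 292 and 281 in RBMX total RNA. Polysomal LDHA was 322, 326 and 131 in control cells and 301, 258 and 310.1 in RBMX cells. Both libraries of control culture 3 lay far below all others.

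**Figure D1:**
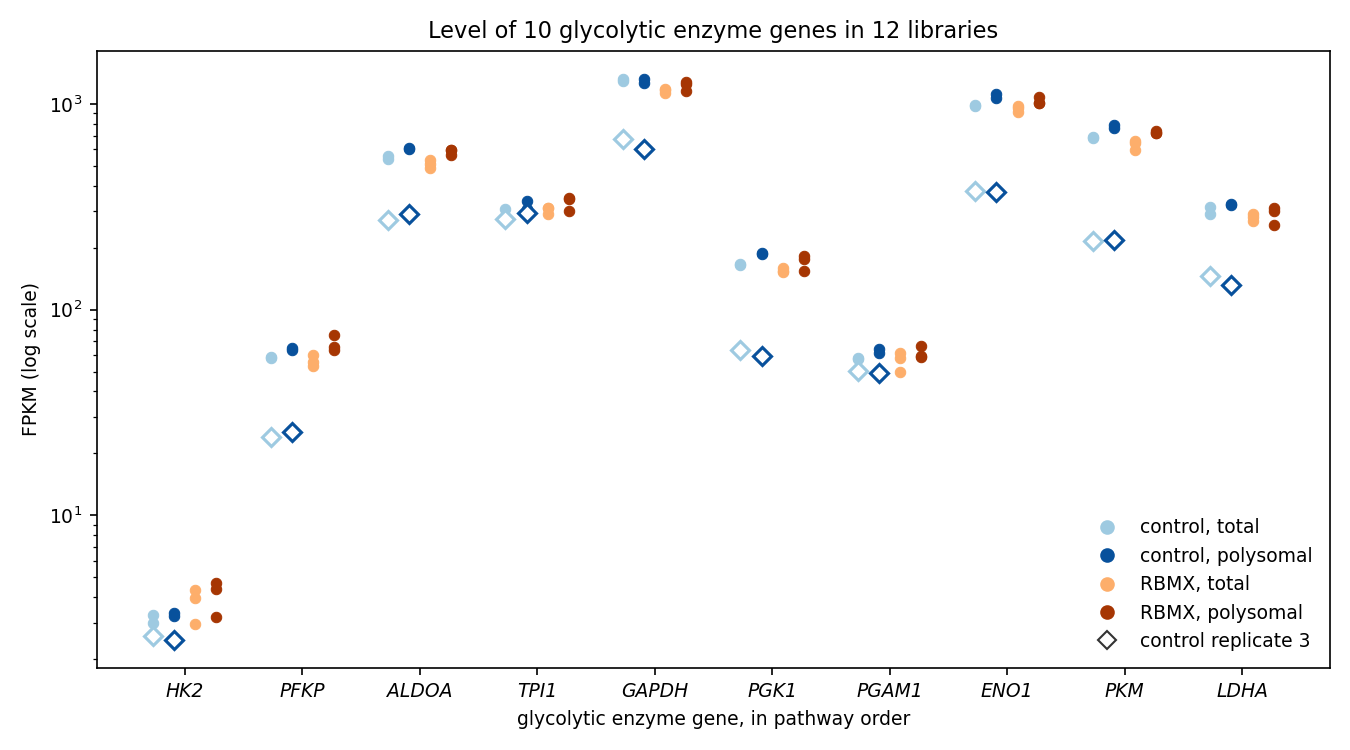
FPKM (log axis) of the 10 genes in pathway order, 1 point per library, coloured by vector and RNA fraction. Open diamonds mark control replicate 3, which lies below the other libraries for HK2, PFKP, ALDOA, GAPDH, PGK1, ENO1, PKM and LDHA in both fractions, by far for all of these but HK2, and next to them for TPI1 and PGAM1.

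Averaged over the 12 libraries the order of the levels was GAPDH (1134 FPKM), ENO1 (902), PKM (620), ALDOA (513), TPI1 (310), LDHA (271), PGK1 (151), PGAM1 (58.0), PFKP (55.8) and HK2 (3.46). GAPDH lay above ENO1, ENO1 above PKM, LDHA above PGK1, PGK1 above PGAM1 and PFKP above HK2 in all 12 libraries. PKM exceeded ALDOA in 10 libraries, ALDOA exceeded TPI1 in 10 and TPI1 exceeded LDHA in 9. PGAM1 lay above PFKP in only 5 libraries, so these neighbours did not differ beyond their spread. In both libraries of control culture 3 the order of PKM and ALDOA was turned, and so was that of ALDOA and TPI1. PFKP stood at 23.9 and 25.6 FPKM in these libraries, against 50.3 and 49.4 for PGAM1, and these values enter the averaged order of both genes.

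Control culture 3 stood apart for most of these genes, and this bears on every comparison with control cells. On the log2(FPKM + 1) scale its total library lay below the mean of control total libraries 1 and 2 by 1.67 for PKM, 1.38 for ENO1, 1.36 for PGK1, 1.25 for PFKP, 1.06 for LDHA, 1.00 for ALDOA and 0.96 for GAPDH. These are differences of levels within the control group. In FPKM the total library of culture 3 held 0.313 times the mean of the other control cultures for PKM and 0.513 times for GAPDH. The differences for TPI1 (-0.083), PGAM1 (-0.20) and HK2 (-0.20) were much smaller. Polysomal RNA of the same culture showed the same division, from -1.83 for PKM to -1.06 for ALDOA in these 7 genes and from -0.34 (PGAM1) to -0.13 (TPI1) in the other 3. The 10 genes together summed to 4403, 4405 and 2096 FPKM in control total RNA and to 4632, 4803 and 2048 in control polysomal RNA.

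Few genes of the table lay as low in that culture. A difference of -0.8 or less, a value chosen after seeing that it falls in the gap between the 7 genes and the other 3, was found in 3.5% of the 14676 genes in total RNA and in 5.8% in polysomal RNA. GAPDH, the least displaced of the 7 in total RNA, had 2.07% of all genes below it there, and ALDOA, the least displaced in polysomal RNA, had 2.49%. PKM had 0.586% and 0.463% of genes below it. Over all genes the median difference was 0.0060 (total) and 0.00078 (polysomal), and in the other 10 libraries, each set against its 2 fellow replicates, the median over the 10 genes ran from -0.074 to 0.61. The higher end of that range comes from control replicates 1 and 2, whose fellows include replicate 3.

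Several measured properties were set beside this pattern, and their part in it was not tested. Over 12501 genes with an annotated transcript, the difference in control replicate 3 had a Spearman correlation with transcript length of -0.16 in total and -0.31 in polysomal RNA, and with GC content of -0.16 and 0.21, where genes share the libraries and are not independent. PGK1 (longest coding transcript 4887 bases) and HK2 (5772 bases) are the longest of the 10, and PGK1 was displaced while HK2 was not. The summed HEK293 markers were also lower there, 342 FPKM against up to 683 in control total RNA and 306 against up to 709 in control polysomal RNA, and most of that sum was VIM (522, 549 and 248 FPKM in control total RNA). VIM and NEFM were past -0.8 in both fractions, whereas control total replicate 3 held 1.04 times the mean of its fellow replicates for EYA1 and 1.02 times for LIN28B. ACGTG, the element printed above, was present before 5 of the 7 displaced genes and 2 of the other 3. In RNA from a whole culture, less of a transcript in every cell and fewer cells that hold it cannot be told apart.

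**Figure D2:**
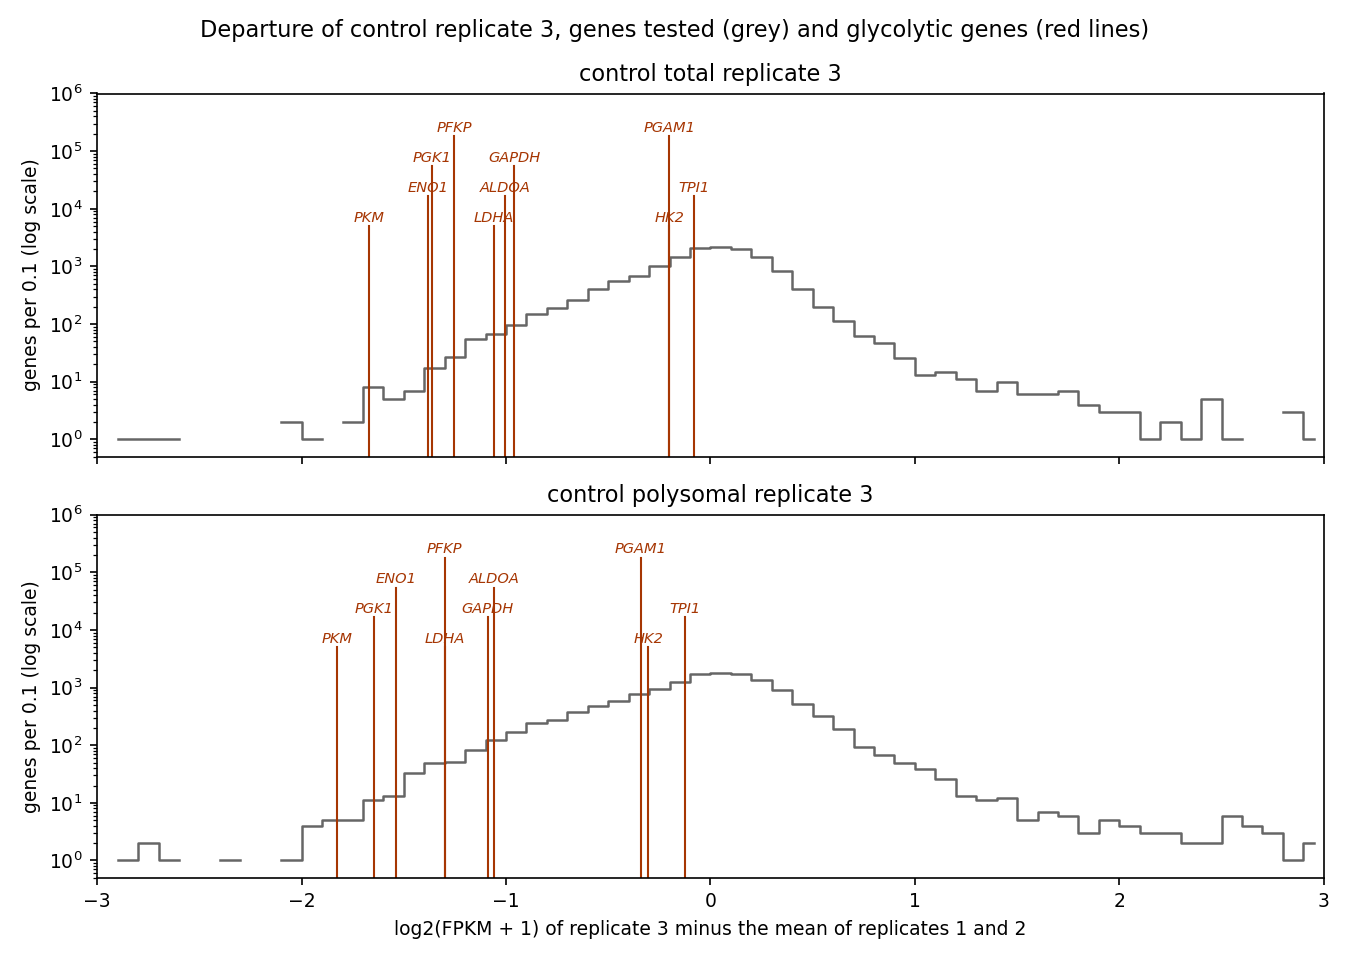
Number of genes (log axis) by the difference of control replicate 3 from the mean of control replicates 1 and 2 on the log2(FPKM + 1) scale, total RNA above and polysomal RNA below, in grey for all genes tested (185 genes in total and 189 in polysomal RNA lie beyond the axis). Red lines mark the 10 glycolytic genes, of which 7 lie between -0.96 and -1.67 in total RNA and between -1.06 and -1.83 in polysomal RNA.

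Overexpression of RBMX was compared with the control vector within each fraction. In total RNA all 10 genes had a higher mean in RBMX cells, by 0.02 (PGAM1) to 0.44 (PKM) on the log2(FPKM + 1) scale with a median of 0.25, against a median of 0.0 over all genes. None of the 10 passed the threshold of 0.05 (limma, Benjamini-Hochberg adjusted p from 0.355 to 0.920 over the 10), and none had an unadjusted p under 0.05, where 0.164% of all genes were called and 2756 genes had an unadjusted p under 0.05. The estimate for PKM was 0.44 with a standard error of 0.48 (limma adjusted p = 0.645), and that for GAPDH 0.15 with a standard error of 0.29 (limma adjusted p = 0.807). HK2 had the lowest limma adjusted p of the 10, 0.355, with an estimate of 0.26 and a standard error of 0.14. No gene of the 10 had RBMX libraries all above or all below the 3 control libraries, which 11.9% of all genes showed in the higher and 15.4% in the lower direction.

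Without control replicate 3 the direction turned for most of these genes. In total RNA 8 of the 10 were then lower in RBMX cells and 2, TPI1 and HK2, higher, with a median of -0.073 against -0.013 over all genes. GAPDH was lower by 0.17 (standard error 0.090) and PKM by 0.12 (standard error 0.077), and the lowest limma adjusted p was 0.245 for PGK1, at an estimate of -0.093 and a standard error of 0.042. None passed, with 0.273% of all genes called. All RBMX total libraries lay below control replicates 1 and 2 for GAPDH, ENO1, PGK1, LDHA, PKM and ALDOA, 6 of the 10, while 26.5% of all genes lay lower and 20.5% higher in this way with 3 libraries against 2.

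Polysomal RNA gave the same picture. With all control libraries the 10 genes were higher in RBMX cells by 0.08 (TPI1) to 0.52 (PKM), with a median of 0.32 against 0.0 over all genes, and limma adjusted p from 0.440 (HK2, estimate 0.33, standard error 0.15) to 0.793 (TPI1), while the test called 0.0477% of all genes and 1715 passed 0.05 before adjustment. None of the 10 separated the groups fully, where 10% of all genes were higher and 12.5% lower in this way. Without control replicate 3 the median was -0.061 against -0.027 over all genes, 7 of the 10 were lower and TPI1, HK2 and PFKP higher, and limma adjusted p ran from 0.430 to 0.879 with 0.075% of all genes called. The RBMX polysomal libraries then all lay below both control libraries for PGK1, LDHA, PKM and ALDOA, against 26.2% of all genes lower and 19.1% higher. LDHA had the largest such difference, -0.17 with a standard error of 0.11 (limma adjusted p = 0.432).

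HK2 and TPI1 were higher in RBMX cells with and without control replicate 3 in both fractions, though neither passed. For HK2 the estimates without that replicate were 0.19 (standard error 0.15) in total and 0.23 (standard error 0.15) in polysomal RNA, and RBMX replicates 1 and 2 carried them, since RBMX replicate 3 (2.96 and 3.20 FPKM) lay below control replicates 1 and 2. Because HK2 is a low gene, the log2(FPKM + 1) scale understates its fold change.

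**Figure D3:**
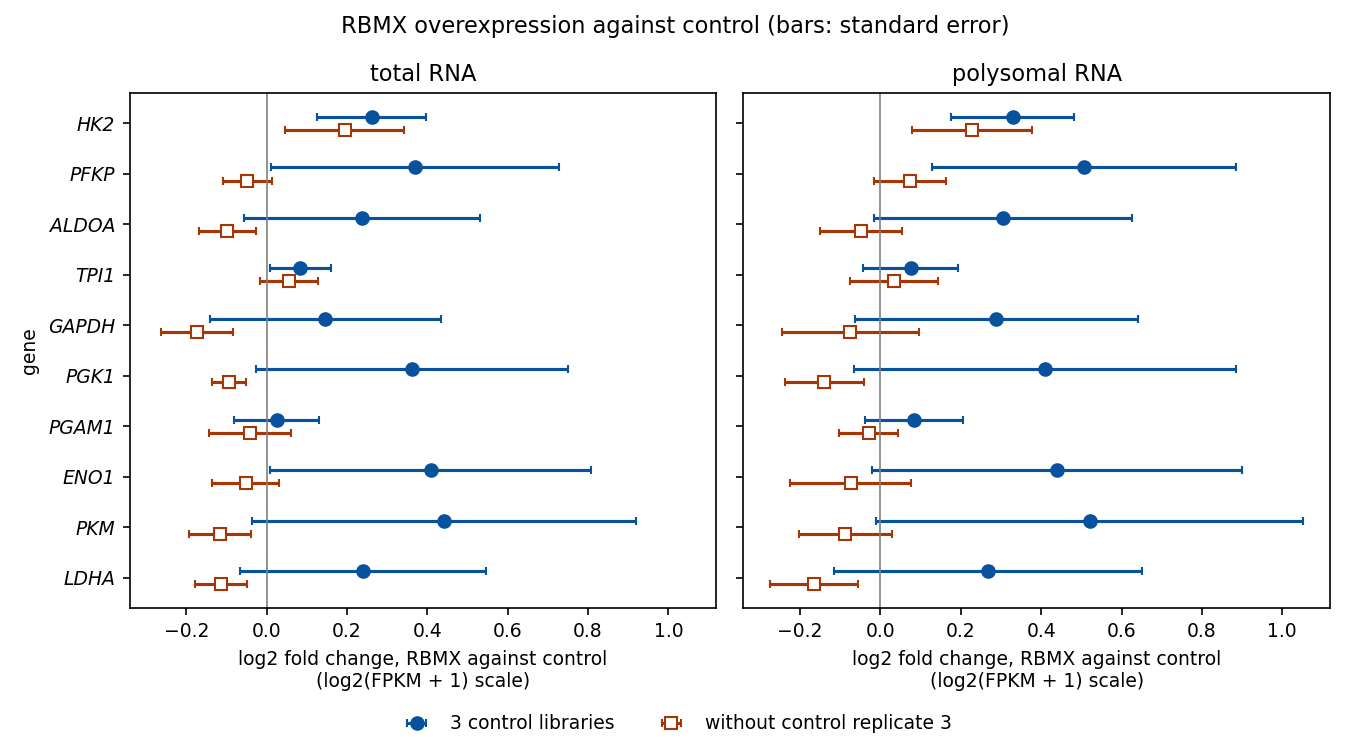
Log2 fold change (RBMX against control, log2(FPKM + 1) scale) of the 10 genes with its standard error, with all 3 control libraries (filled circles) and without control replicate 3 (open squares), in total and polysomal RNA. The circles all lie above 0 with wide bars for the 7 displaced genes, and 8 of the squares in total RNA and 7 in polysomal RNA lie below 0 with narrower bars.

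Polysomal and total levels of these mRNAs were compared as the polysomal minus the total library of 1 culture on the log2(FPKM + 1) scale. A positive value means a higher level in polysomal RNA, relative to all fragments of each library. It is not the share of an mRNA that lies on polysomes. The median of the 10 genes was 0.14, 0.13 and -0.018 in control cultures 1 to 3 and 0.13, 0.057 and 0.17 in RBMX cultures 1 to 3, whereas the median over all genes stayed between -0.023 and 0.023. All 10 genes were above 0 in control culture 2 and in RBMX cultures 1 and 3, 9 in control culture 1, 7 in RBMX culture 2 and 4 in control culture 3. PFKP, ALDOA and PKM were above 0 in all 6 cultures, which 16% of all genes showed. In control cells 4 of the 10 were above 0 in all 3 cultures, against 24.2% of all genes, and in RBMX cells 7 of the 10, against 28.2%.

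Per culture, PFKP was higher in polysomal RNA by 0.15, 0.13 and 0.092 in control cells and by 0.12, 0.49 and 0.18 in RBMX cells. PKM was higher by 0.13, 0.21 and 0.014 in control cells and by 0.14, 0.30 and 0.16 in RBMX cells. ALDOA differed by 0.11, 0.18 and 0.093 in control cells and by 0.073, 0.28 and 0.23 in RBMX cells. RBMX culture 2 gave the largest value of each of the 3 genes. GAPDH lay on both sides of 0, at -0.071, 0.026 and -0.15 in control cells and at 0.093, 0.029 and 0.11 in RBMX cells. LDHA did so as well, at 0.14, 0.044 and -0.15 in control cells and at 0.15, -0.18 and 0.14 in RBMX cells.

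In control cells no gene of the 10 passed the test of polysomal against total RNA (limma adjusted p from 0.80 to 1.0, 1180 genes with an unadjusted p under 0.05), with a median of 0.090 against 0.0 over all genes, and 0.0818% of all genes were called. With the libraries of each culture paired, limma adjusted p ran from 0.207 (PFKP, estimate 0.12, standard error 0.036) to 0.951 (LDHA) and 0.0409% of all genes were called. Without culture 3 and without pairing, PGK1 (estimate 0.18, standard error 0.028, limma adjusted p = 0.103), PFKP, PGAM1 and PKM had an unadjusted p under 0.05. So did 3762 of the 14676 genes tested. None of the 10 passed, and 1.36% of all genes were called. With pairing and without culture 3, limma called 0 genes of the table (0%), with 2799 at an unadjusted p under 0.05, and the limma adjusted p of the 10 ran from 0.248 to 0.916.

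In RBMX cells all 10 genes had a higher polysomal mean, by 0.039 (LDHA) to 0.26 (PFKP) with a median of 0.13 against -0.0011 over all genes, and none passed (limma adjusted p from 0.168 for PFKP to 0.842). The test called 1.34% of all genes, 196 in number, of which 4 were higher in polysomal RNA. With the libraries of each culture paired it called 4 genes, 0.0273% of all, and limma adjusted p of the 10 ran from 0.237 to 0.831. PFKP, with a standard error of 0.085 unpaired, was the only one of the 10 with an unadjusted p under 0.05, and that was lost with pairing. Over all genes tested, 3373 had an unadjusted p under 0.05 without pairing and 3217 with it.

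**Figure D4:**
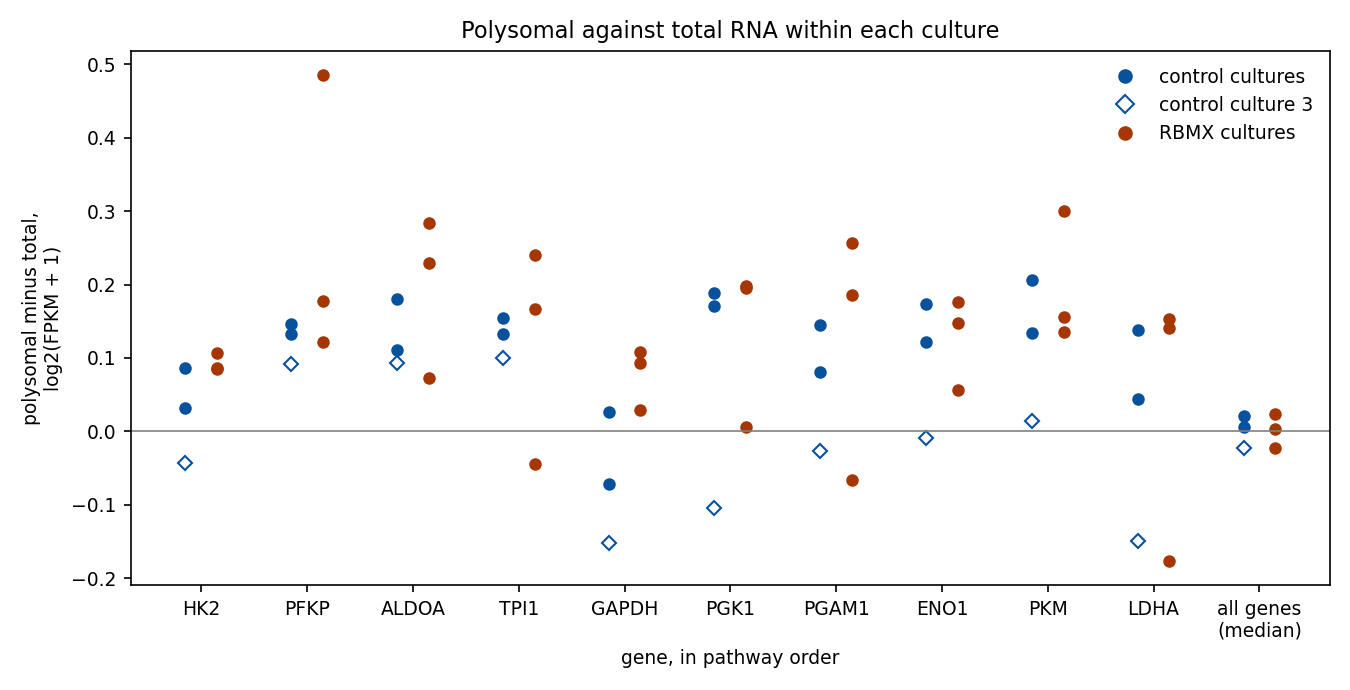
Polysomal minus total level on the log2(FPKM + 1) scale for each of the 10 genes and for the median of all genes tested, 1 point per culture, in control cells (blue, culture 3 as open diamonds) and RBMX cells (red). Most points of the 10 genes lie between 0 and 0.3, the medians of all genes lie within 0.023 of 0, and control culture 3 gives the lowest control value of every gene.

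Whether RBMX changed polysomal and total RNA to a different extent was tested as the difference of both effects over the 12 libraries. The difference was positive for 9 of the 10 genes and -0.0082 for TPI1, with a median of 0.063 against -0.0019 over all genes. GAPDH had the largest difference, 0.14 with a standard error of 0.46. No gene of the 10 passed, with a limma adjusted p of 1.0 for each and 0.0204% of all genes called (88 with an unadjusted p under 0.05). With the libraries of each culture paired the standard error of GAPDH was 0.14, limma adjusted p was 1.00 for each of the 10, and 0.0341% of all genes were called. Without control replicate 3 the median was 0.020, 4 of the 10 were negative, none passed and 0.0477% of all genes were called, or 0.0681% with pairing.

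Most steps of the pathway have several isoenzymes, and their shares within a library do not depend on scaling between libraries. HK2 made up 7.54%, 7.98% and 15.7% of the summed FPKM of HK1 and HK2 in control and 10.2%, 12.6% and 9.19% in RBMX total RNA. Polysomal shares of HK2 were 7.02%, 7.33% and 14.1% in control cells and 10.4%, 10.0% and 8.66% in RBMX cells. The RBMX libraries thus lay above control replicates 1 and 2 and below control replicate 3, where HK1, the widely expressed hexokinase, measured 13.9 FPKM in total RNA against 36.7 and 37.8 in the other control cultures. The mean share differed by 0.26 percentage points in total RNA (two-sided exact permutation test, p = 1.0, n = 3 against 3) and, without control replicate 3, by 2.92 (exact p = 0.2, the smallest that 3 against 2 libraries allow).

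PFKP made up 37.6%, 37.7% and 33.4% of the phosphofructokinase transcripts PFKL, PFKM and PFKP in control total RNA and 37.6%, 38.6% and 37.4% in RBMX total RNA. In polysomal RNA its share was 37.4%, 36.6% and 31.5% in control cells and 38.4%, 38.3% and 37.3% in RBMX cells (two-sided exact permutation test, p = 0.2). Control replicate 3 was the lowest in both fractions. LDHB, whose subunit favours the oxidation of lactate, was the more abundant lactate dehydrogenase, and the share of LDHA ran from 24.2% to 26.3% over the total and from 24.8% to 26.1% over the polysomal libraries. Control replicate 3 stood at 25.6% and 26.1%, inside the total range and at the top of the polysomal range, and LDHB was about as far below its fellows there (424 FPKM against 915 and 894 in control total RNA) as LDHA was. ENO1 held 97.1%, 97.2% and 93.7% of the enolase transcripts in control total RNA and 96.8%, 96.8% and 97.2% in RBMX total RNA, and ALDOA held 99.7% to 99.8% of ALDOA and ALDOC. Over the 10 tests of 5 shares in 2 fractions the lowest exact permutation p was 0.2 with all libraries, where 0.1 is the smallest possible, and the Benjamini-Hochberg adjusted value was 1.0 for each.

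**Figure D5:**
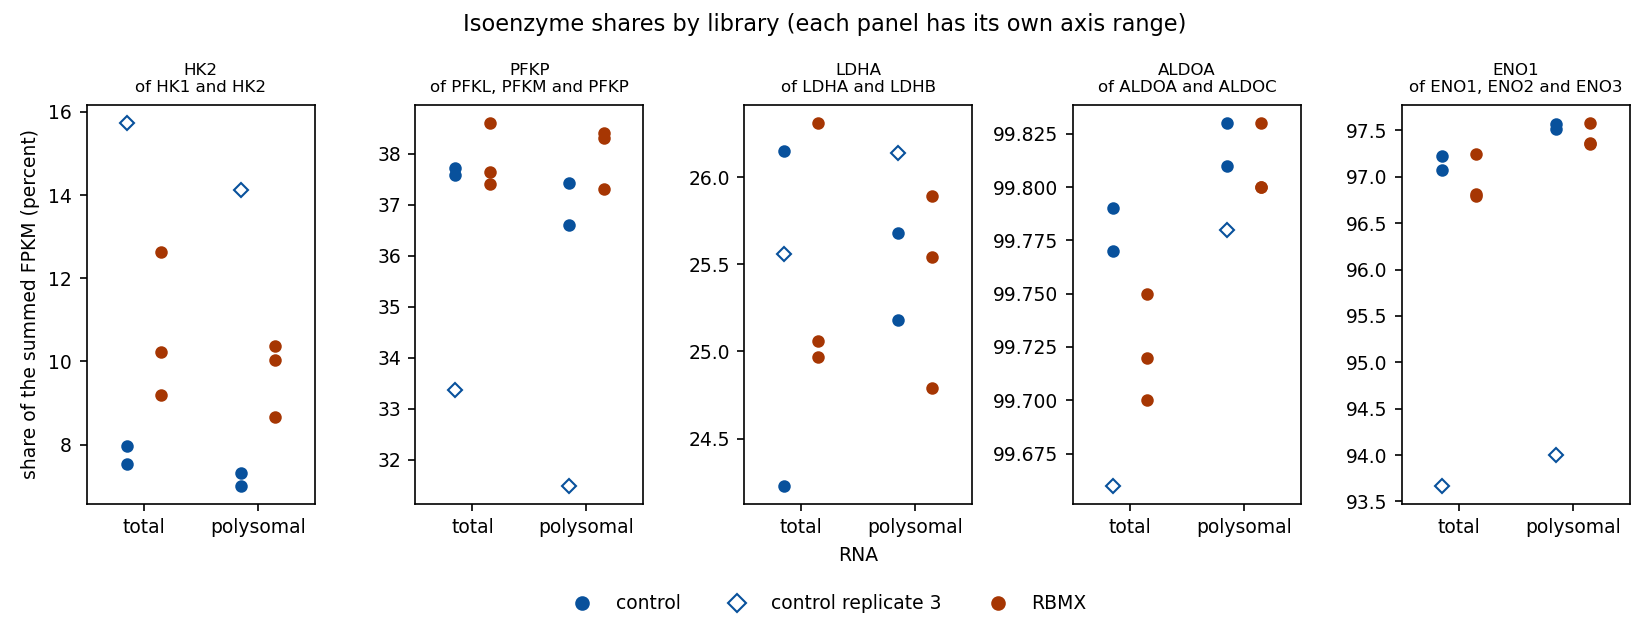
Share (percent of the summed FPKM) of HK2, PFKP, LDHA, ALDOA and ENO1 among the isoenzymes named in each panel, 1 point per library, control in blue and RBMX in red, with a separate axis range in each panel. Control replicate 3 (open diamonds) is highest for HK2 and lowest for PFKP, ALDOA and ENO1 in both fractions, and lies among the others for LDHA in total RNA.

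Other genes of glucose metabolism were read from lists. Of 21 further glycolytic enzymes and isoenzymes 14 were tested, none was called in either RBMX comparison, and 12 were higher and 2 lower in total RNA with a median of 0.12. Without control replicate 3 the counts were 6 higher and 8 lower, with a median of -0.032. In control replicate 3, HK1, GPI (which converts glucose phosphate to fructose phosphate), PFKL, PFKM and LDHB were past -0.8 in both fractions, 5 of the 14. GPI measured 214, 217 and 97.7 FPKM in control total RNA and PFKL 76.7, 75.1 and 36.8. BPGM, which makes the bisphosphoglycerate that tunes haemoglobin in red cells, went the other way, at 33.1, 33.3 and 38.5 FPKM in control total RNA.

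Genes that feed and drain the pathway showed a similar mixture. None of the 6 transport genes was called, 5 were higher in RBMX total RNA and 6 in RBMX polysomal RNA (medians 0.29 and 0.28), and without control replicate 3 these counts were 5 and 4 (medians 0.14 and 0.076). SLC2A1, the glucose transporter GLUT1, measured 16.2, 15.0 and 7.25 FPKM in control total RNA and 17.9, 16.5 and 16.6 in RBMX total RNA. SLC16A1, a lactate transporter, measured 43.5, 38.0 and 21.7 in control and 50.5, 51.8 and 36.9 in RBMX total RNA. SLC16A3, the lactate exporter of glycolytic cells, stood at 0.643, 0.714 and 0.625 FPKM in control and 0.864, 0.887 and 0.882 in RBMX total RNA, an estimate of 0.18 with a standard error of 0.037 (limma adjusted p = 0.170), and the groups did not overlap.

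The pentose phosphate pathway branches off at glucose phosphate and supplies NADPH and ribose. Of its 8 genes 7 were tested and none called, with 4 higher and 3 lower in RBMX total RNA (median 0.082), and 1 higher and 6 lower without control replicate 3 (median -0.12). PGD and TKT were past -0.8 in both fractions of control replicate 3, with TKT at 106, 106 and 37.3 FPKM in control total RNA. In the list for entry of pyruvate into mitochondria none of 13 was called, 6 were higher and 7 lower in total RNA (median -0.0085), or 3 higher and 10 lower without control replicate 3 (median -0.11). PDHA1 and DLD, subunits of the pyruvate dehydrogenase complex, were past -0.8 in both fractions of control replicate 3 and DLAT in its polysomal RNA. PFKFB2, PFKFB3, PFKFB4 and C12orf5 were listed for the control of a regulatory fructose bisphosphate, which is not the one that aldolase splits. For these 4 tested genes the median was 0.020 in total RNA and 0.0096 without control replicate 3. For the 3 tested genes of gluconeogenesis it was -0.023 and -0.074. Neither list held a called gene or one past -0.8.

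Genes known to respond to hypoxia were read as a list because many glycolytic genes share that response. Of 10 listed 9 were tested and none called, with 5 higher and 4 lower in RBMX total RNA (median 0.031, and 0.0079 without control replicate 3). None was past -0.8 in the total RNA of control replicate 3, where the median over the 9 was 0.079, and 1, P4HA1, was past it in polysomal RNA. BNIP3, a mitophagy receptor, measured 12.8, 11.3 and 13.3 FPKM in control total RNA.

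GAPDH and PGK1 are also used as reference genes, and their stability here hinged on control culture 3. The SD of log2(FPKM + 1) over the 12 libraries was 0.38 for GAPDH and 0.57 for PGK1, and 90.5% and 94.9% of all genes varied less. Over the 10 libraries without control culture 3 the SD was 0.083 for GAPDH, with 14.0% of genes varying less, and 0.12 for PGK1. Among 11 common reference genes GAPDH ranked 8 and PGK1 ranked 11 from the most stable over 12 libraries, where PPIA (SD 0.12) was the most stable, and GAPDH ranked 1 and PGK1 ranked 3 over 10. ACTB, SDHA, PGK1 and GAPDH were past -0.8 in both fractions of control replicate 3. The median SD of the 10 glycolytic genes was 0.42 over 12 and 0.11 over 10 libraries, against 0.17 and 0.14 for all genes.

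Setting the other genes against GAPDH within each library shows how evenly they moved. LDHA stood at 0.217 to 0.258 times GAPDH over the 12 libraries and ALDOA at 0.405 to 0.515 times, each with its lowest ratio in control total replicate 3. The lowest ratios in the libraries of the other cultures were close to these, at 0.221 for LDHA and 0.416 for ALDOA. PKM also had its lowest ratio there, at 0.32 times GAPDH, against 0.523 to 0.638 in the libraries of the other cultures. TPI1 went in the opposite direction, at 0.412 times GAPDH in control total replicate 3 and 0.491 times at its highest, against 0.209 to 0.277 in the libraries of the other cultures. A ratio to GAPDH therefore shows unequal displacement within control culture 3 and not which gene moved.

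Over the 12 libraries the 7 displaced genes were closely correlated on the log2(FPKM + 1) scale, with Pearson's r from 0.93 to 0.998 over 21 pairs. Over the 10 libraries without control culture 3 the median r of these pairs was 0.71 and the lowest -0.17, so the tight relation rested on that culture. All 45 pairs of the 10 genes had a median r of 0.75 over 12 and 0.41 over 10 libraries. The r of HK2 with the other genes ran from 0.33 (TPI1) to 0.70 (PGAM1) over 12 libraries and from -0.65 (GAPDH) to 0.46 (PGAM1) over 10. The libraries share cultures and gradients, and these coefficients describe them only.

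The genes outside the 10 whose pattern over the 12 libraries was most like their mean were HSP90AA1 (r = 0.993), a heat-shock chaperone, AGK (0.992), a mitochondrial lipid kinase, PDHA1 (0.991), of the pyruvate dehydrogenase complex, NASP (0.991), a histone chaperone, and ACSS2 (0.99), which makes acetyl-CoA from acetate. HSP90AA1 lay 1.44 below the other control cultures in the total RNA of control culture 3, about as far as ENO1. AGK, in contrast, lay only 0.37 below, since a correlation does not depend on the size of a change.

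Some of these levels carry an uncertainty from copies elsewhere in the genome. The GENCODE annotation of GRCh38 names 62 pseudogenes of GAPDH, 13 of PGAM1, 6 of LDHA, 5 of PKM and 4 each of ENO1 and TPI1, and the table lists 2 for TPI1, 1 for PGAM1 and 0 for GAPDH. The longest coding transcripts of PGAM1 and its retrogene PGAM4 align over 765 bases with 98.3% identity, so fragments of both can be exchanged in counting. How shared fragments were assigned is not given in the sources used here.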

How the data were processed

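RNA of 12 HEK293 libraries (control or RBMX vector, total or polysomal, 3 cultures each) was compared. The authors deposited FPKM values per gene symbol and library. The submitters' processing notes name CASAVA 1.8, TopHat2 2.0.13, Cufflinks 2.2.1, Cuffnorm and hg19, whereas the paper's methods name another aligner, hg38 and DESeq2 on counts, so which of them made these values is not settled and a further scaling by Cuffnorm can have been applied. Fragment numbers are unknown, and 0 columns were left unmatched. Since FPKM values are not counts, limma 3.58.1 (R 4.3.3, lmFit and eBayes with trend) was applied to log2(FPKM + 1) of 14676 genes averaging 0.5 FPKM or more, with Benjamini-Hochberg adjustment over all of them and a threshold of 0.05. RBMX was compared with control on the 6 libraries of each fraction, polysomal with total RNA on the 6 libraries of each vector, and the difference of effects on all 12. With 3 libraries against 3, a two-sided exact permutation p cannot go below 0.1. Isoenzyme shares were tested by exact permutation (scipy 1.17.1). Plots used Python 3.11.15 with matplotlib 3.10.9, and BLAST 2.17.0 aligned PGAM1 with PGAM4. Gene annotation came from GENCODE v29 on GRCh38 and windows before starts from RefSeq on GRCh38.p14. The fits were tested on simulated data first.

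The genes named are the 10 enzymes, RBMX, up to 5 genes per list with the largest mean change over both RBMX comparisons, isoenzymes where a share is given, and the 5 genes most like the mean of the 10. Genes named for their value in control replicate 3 were chosen after their values were seen. The 10 genes and the lists were chosen with earlier results of these data known, and some values of the lists are not reported here.

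Total and polysomal RNA of a culture come from 1 gradient, which pairs them. Spearman correlations of their deviations from the group means across genes were 0.54, 0.69 and 0.77 in control cultures 1 to 3 and 0.091, -0.17 and 0.58 in RBMX cultures 1 to 3. Control and RBMX cultures share only a number. The alternatives were a pseudocount of 0.1, no filter, median-ratio rescaling, each replicate left out in turn, a replicate block, and a common fit of all 12 libraries.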

Additional observations from a re-analysis of the deposited data

How the results depend on the processing

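In every alternative tried, 0 of the 10 genes were called by limma in any of the 5 comparisons, and their limma adjusted p ran from 0.103 to 1.0. No direction of these genes turned under a pseudocount of 0.1, no filter, median-ratio rescaling, all 12 libraries in one fit, or the replicate block. The replicate block, which moved no call of the 10, left the medians at 0.25 in total and 0.32 in polysomal RNA for RBMX against control, where cultures share only a number (5 of 12 libraries correlated best with their own number across genes). Depth could not be judged, since fragment numbers are unknown.

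Leaving out replicates in turn mattered most, with control replicate 3 at the low end for RBMX against control. In total RNA the estimates ran from -0.17 to 0.32 for GAPDH, -0.052 to 0.64 for ENO1, -0.093 to 0.59 for PGK1, -0.11 to 0.44 for LDHA, -0.12 to 0.73 for PKM, -0.097 to 0.42 for ALDOA, -0.042 to 0.11 for PGAM1 and -0.048 to 0.58 for PFKP. The median of the 10 ran from -0.073 to 0.42. In polysomal RNA that median ran from -0.061 to 0.49, and the estimates from -0.075 to 0.49 for GAPDH, -0.074 to 0.71 for ENO1, -0.14 to 0.69 for PGK1, -0.17 to 0.49 for LDHA, -0.088 to 0.84 for PKM, -0.048 to 0.49 for ALDOA and -0.029 to 0.15 for PGAM1.

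For polysomal against total RNA, LDHA ran from -0.052 to 0.091 in control and from -0.018 to 0.15 in RBMX cells, and HK2 from -0.0060 to 0.059 in control cells. The difference of effects ran from -0.068 to 0.074 for TPI1, -0.021 to 0.071 for ENO1, -0.046 to 0.11 for PGK1, -0.052 to 0.14 for LDHA and -0.0061 to 0.15 for PGAM1. With paired cultures and control culture 3 left out, chosen after seeing the data, ENO1 (-0.021), PGK1 (-0.046) and LDHA (-0.052) turned too.

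The difference in isoenzyme share, in percentage points of RBMX minus control, ran from -1.18 to 2.92 in total and -1.03 to 2.52 in polysomal RNA for HK2, and from -0.40 to 0.56 and -0.50 to 0.051 for LDHA. It ran from -0.055 to 0.0098 and -0.011 to 0.015 for ALDOA, and from -0.20 to 1.58 and -0.11 to 1.68 for ENO1. Why control culture 3 differs was not tested.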
